A study of Mus musculus with 12 samples.

Results

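The experiment described here compares mouse embryonic fibroblasts lacking ATF6b with wild-type fibroblasts while both were under tunicamycin. It rests on 8 of the 12 miRNA arrays of the study: 4 knockout arrays (ATF6bKO) and 4 wild-type arrays (ATF6bWT), each set made up of 2 arrays at 12 h and 2 arrays at 24 h. All cells are of the C57BL/6 background, tunicamycin was given at 2 ug/mL in the culture medium, and 100 ng of total RNA went onto each array. The other 4 arrays are untreated cells, 2 of each genotype. They serve as a reference for the tunicamycin arrays and, with those, set the scaling and the lowest value used below. Among 611 mouse miRNAs on the array, the members are the 154 that the scanner software detected on both arrays of at least 1 of the 4 tunicamycin groups. Of these, 98 were detected on all 8 arrays and 28 passed through a single group, 7 through a knockout group and 21 through a wild-type group. A further 73 were detected on 1 array of a group without meeting the rule, with a median highest relative signal of 4.45 (the unit is explained below), and 384 were detected on no tunicamycin array. The labels describe the 2 experiments at each time as independent. They give neither the embryo nor the clone behind each genotype, so genotype and cell isolate cannot be told apart.

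ATF6b is a membrane protein of the endoplasmic reticulum and a close relative of ATF6a. When unfolded proteins build up, such proteins move to the Golgi, where proteolysis releases a fragment that enters the nucleus and binds promoters of chaperone genes. Tunicamycin blocks N-linked glycosylation and so brings about this stress. A miRNA is a short RNA that pairs with target messages mainly through its seed, the bases from position 2 to position 8, so miRNAs with one seed share many predicted targets. The design text states that miRNAs responding to 12 h of tunicamycin in dependence on ATF6b were sought. The array carries no probe for Atf6b, and the genotype of each sample rests on its label.

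Each value below is a relative signal: the summed probe signal of a miRNA on an array, set to 100 at that array's 75th percentile over the 93 mouse miRNAs detected on all 12 arrays. Values under 1.91 were raised to 1.91, called the floor. Arrays with the same time and replicate number formed 4 pairs, and a difference is the mean over pairs of log2 knockout minus log2 wild type, with its standard error (SE). A miRNA is called where limma's adjusted p is under 0.05. Where 4 array values are listed for a genotype, the order is replicates 1 and 2 at 12 h, then replicates 1 and 2 at 24 h.

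The sequences of the miRNAs on which the results turn are given here to show which share a seed, which is in capitals. Mature sequences from RefSeq (GRCm38.p6) were matched to 118 of the 154 miRNAs. The first set holds the miR-200 family members that were measured. miR-200c and miR-141 lie on the minus strand within chr6:124717917-124718346, inside the span of no other RefSeq gene, and miR-200b lies on the minus strand at chr4:156055685-156055706, within the span of the lncRNA gene Gm13648.
miR-200c: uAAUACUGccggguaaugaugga
miR-200b: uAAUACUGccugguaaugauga
miR-141: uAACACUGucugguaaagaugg
With positions counted from 1 at the 5′ end, miR-200c and miR-141 differ within the seed by U4C, and miR-200b and miR-200c share it.

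The second set holds both strands of the miR-31 hairpin, because both differed by genotype. They lie on the minus strand within chr4:88910577-88910635, inside the span of the lncRNA gene Gm49890.
miR-31: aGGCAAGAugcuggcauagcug
miR-31*: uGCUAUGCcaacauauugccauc

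The third set holds close relatives that are nearly the same sequence and behaved differently. miR-27b (chr13:63300760-63300780, plus strand, within the span of Aopep) and miR-27a (chr8:84208727-84208747, plus strand, inside the span of no other RefSeq gene) differ by U19C. miR-99a (chr16:77598940-77598961, plus strand, inside the span of no other RefSeq gene) and miR-100 (chr9:41531437-41531458, plus strand, within the span of Mir100hg) differ by U16A.
miR-27b: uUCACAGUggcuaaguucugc
miR-27a: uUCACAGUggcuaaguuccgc
miR-99a: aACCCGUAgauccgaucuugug
miR-100: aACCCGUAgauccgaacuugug

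The fourth set holds 4 miRNAs that share 1 seed and were all lower in the knockout. miR-322 lies on the minus strand of the X chromosome (chrX:53054306-53054327), within the span of the lncRNA gene C430049B03Rik. miR-15b (chr3:69009775-69009796, plus strand) lies within the span of Smc4 and miR-15a (chr14:61632075-61632096, minus strand) within that of Dleu2. miR-16 has a copy beside each of them.
miR-322: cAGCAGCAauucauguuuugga
miR-15b: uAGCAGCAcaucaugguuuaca
miR-16: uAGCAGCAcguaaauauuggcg
miR-15a: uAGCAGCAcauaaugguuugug

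Several facts about the arrays come before the results. All tunicamycin arrays lie on 1 slide, and members of a pair share slide, scan run and slide column. Knockout arrays are always in the second row of the slide and wild-type arrays in the first, so row and genotype cannot be told apart. Knockout arrays were dimmer within every tunicamycin pair, at 0.515 to 0.81 of the wild-type 75th percentile intensity, whereas untreated knockout arrays were at 1.1 and 1.11 of theirs. The part of brightness in the results was not tested. The arrays went against their label of fibroblasts in one respect: 3 epithelial markers (miR-200c, miR-200b and miR-141) were well detected on all 4 knockout tunicamycin arrays and on none of the other 8 arrays. The summed relative signal of the 5 miR-200 family members on the array was 255 to 373 on those 4 arrays and 9.55, all at the floor, on every other one. miR-21, the brightest miRNA, made up 24.4% to 28.6% of the summed signal on the 8 tunicamycin arrays. Of the 7 blood, 5 neural and 5 endothelial and liver markers on the array, 0 were detected on any array, and of 16 pluripotent markers 1 was detected on a knockout and 1 on a wild-type tunicamycin array. As all 4 knockout arrays carry the miR-200 signal, no comparison could be made without such arrays. In RNA from whole cultures, a change in the number of cells of a type and a change in RNA per cell cannot be told apart.

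Under tunicamycin the knockout carried miR-200c, miR-141, miR-200b and miR-375, which were at the floor in wild type. In the summed probe signal, many fibroblast and imprinted Dlk1-Dio3 miRNAs were higher in the knockout and the miR-15 seed group was lower. Over both times 118 of 154 miRNAs were called (76.6%), 74 higher in the knockout (48.1%) and 44 lower (28.6%). Quantile normalization gave 44 higher and 51 lower, and scaling over all mouse miRNAs gave 47 higher and 58 lower, so the balance of directions depends on the scaling. The median difference of all 154 was 0.25, against -0.03 and -0.08 under those scalings and 0.32 after normexp background correction (108 higher, 12 lower). A log2 difference within about this shift has no settled direction. In 73 miRNAs (47.4%) the 4 knockout values did not overlap the 4 wild-type values, 57 with the knockout higher (37%) and 16 with it lower (10.4%), and in 121 (78.6%) all 4 pairs had one sign. Sizes were uneven: 27 called miRNAs were higher and 10 lower by at least 1 on the log2 scale, with 9 higher and 1 lower by at least 2. Another 32 called miRNAs differed by less than 0.5. Without the replicate block, 81 were called (59 higher, 22 lower). Within run 1 alone, with 2 pairs, 59 were called, and within run 2 alone 110. The software's total gene signal called 28 and the deposited values 14. The total gene signal was scaled like the summed signal, with a median difference of 0.24 over all tested. The deposited values were not scaled between arrays and so keep any difference in array brightness, with a median of -0.25. Of 73 miRNAs named here, 34 kept their sign but lost their call with the total gene signal, and 7 others changed sign. With the deposited values 44 kept their sign but lost their call, and 13 others changed sign. A miRNA that met the detection rule only through the group where it is high was bound to lean that way, so its direction is a description. Of the 7 that entered through a knockout group, 5 were called higher and 0 lower, and of the 21 that entered through a wild-type group, 4 were called higher and 11 lower. Among the other 126 miRNAs, 65 were called higher and 33 lower. Some of these 126 met the rule only through groups of the genotype where they are high. Among them are miR-200c, miR-141, miR-200b, miR-31, miR-99a and miR-24-1* through the knockout, and miR-322, miR-149 and miR-350 through wild type. Their direction is likewise a description.

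miR-200c, which represses the transcription factors Zeb1 and Zeb2 and so helps to keep cells epithelial, had the largest difference. It read 144, 230, 156 and 211 in the knockout and 1.91 on all 4 wild-type arrays. No knockout value came near a wild-type one. The pair differences ran from 6.23 to 6.91, and the knockout was at least 67.1-fold higher, with at least 72.0-fold at 12 h and at least 62.6-fold at 24 h. Such bounds set the brighter group against the lowest signal that the dim arrays could detect or the miRNA's own signal there, whichever is higher. The fitted difference was 6.57 (SE 0.14; limma, adjusted p = 2.36e-08), and as wild type sits at the floor its size depends on the floor and its SE can be too small. The same holds for each miRNA below that is at the floor in wild type. Like miR-141 and miR-200b, miR-200c met the detection rule only through knockout groups, so its direction is a description.

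miR-141, made from the same chromosome 6 cluster, read 75.7, 89.6, 65.2 and 63.9 in the knockout and was at the floor on all 4 wild-type arrays. It was at least 27-fold higher. miR-200b, from the chromosome 4 cluster, read 31.0, 45.7, 27.7 and 35.9 against the floor, at least 12.7-fold higher. Of the 2 family members that did not meet the detection rule, miR-200a was detected on 2 knockout arrays, with values of 5.13, 6.26, 3.89 and 2.31, and miR-429 was detected on no array.

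Other epithelial and secretory miRNAs were measured for 4 of 8 listed. The summed probe signal called all 4 higher, beside 48.1% of all tested. Quantile normalization called 2 higher, and the total gene signal and the deposited values 0. miR-375, typical of endocrine and secretory epithelia, read 7.50, 9.55, 9.43 and 6.70 in the knockout, was detected on 3 of those arrays, and was at the floor in wild type and in untreated cells. It was at least 3.03-fold higher. It met the detection rule only through the 12 h knockout arrays, so its direction is a description, and its call was lost with the total gene signal (adjusted p = 0.112) and the deposited values (adjusted p = 0.103). miR-96, of the miR-183 cluster of sensory cells, was present in both genotypes: 11.4, 14.3, 9.49 and 11.7 in the knockout against 5.10, 8.49, 6.49 and 7.94 in wild type. These sets did not overlap, and the difference was 0.75 (SE 0.12; limma, adjusted p = 0.00125). The call was lost under quantile normalization (0.31, adjusted p = 0.0815), with the total gene signal (adjusted p = 0.344), with the deposited values (adjusted p = 0.552) and within run 1 alone (adjusted p = 0.0549). Its neighbour miR-183 differed by 0.59 on the main scale and turned to -0.02 with the software's total gene signal. Of the epithelial keratinocyte markers on the list, miR-205 and miR-203 were not detected on any tunicamycin array. The part that cells of another type might have in these values was not tested.

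miR-31, a miRNA that fibroblasts and epithelial cells both can express, showed a different arrangement. It read 42.4, 34.9, 42.4 and 28.8 in the knockout and was at the floor on all 4 wild-type tunicamycin arrays. Untreated cells of both genotypes carried it, at 35.8 and 30.3 in wild type and 40.4 and 38.0 in the knockout. The missing group was thus wild type under tunicamycin, and the knockout under tunicamycin was near the untreated level. The knockout was at least 13.6-fold higher under tunicamycin. As miR-31 met the detection rule only through knockout groups, this direction is a description. The other strand of the hairpin, miR-31*, met the detection rule only through the 12 h knockout arrays, and its direction is a description. It read 12.8, 12.0, 11.6 and 5.89 against the floor, at least 3.74-fold higher, with 7.73 to 11 in the untreated arrays.

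**Figure D1:**
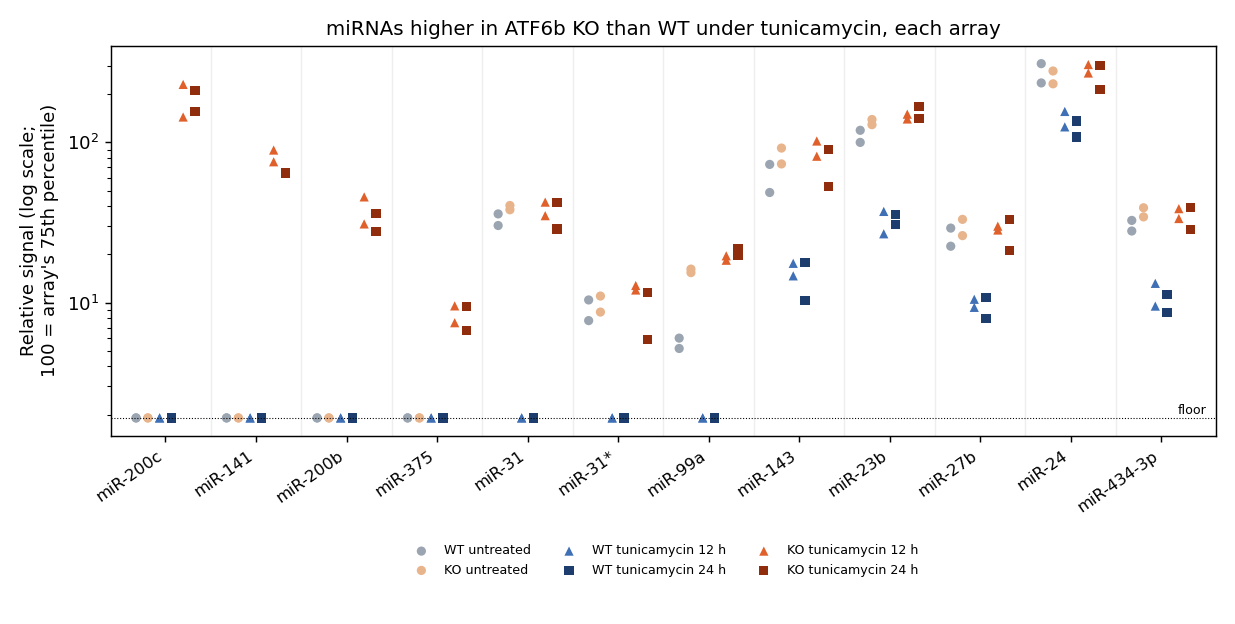
Relative signal on a log scale (100 is the array's 75th percentile) for 12 miRNAs higher in the knockout under tunicamycin, 1 point per array, with blue for wild type and orange or dark red for knockout under tunicamycin (triangles at 12 h, squares at 24 h), and grey or tan circles for untreated wild type or knockout. miR-200c, miR-141, miR-200b and miR-375 leave the floor on knockout tunicamycin arrays only, whereas miR-31, miR-143 and miR-23b are low in wild type under tunicamycin and stand near their untreated levels in the knockout.

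A pair of paralogous clusters carries miR-23, miR-27 and miR-24. Of the 5 miRNAs tested, 3 were higher and 0 lower, with a median of 1.05 (1 higher in the deposited values, where miR-24 was at 0.49 and miR-27b at 1.03), and the members particular to the chromosome 8 cluster did not pass the test. Over all tested, 48.1% were higher and 28.6% lower, so the share of this list is near that of all. miR-23b read 150, 140, 168 and 141 in the knockout and 37.1, 26.9, 35.5 and 30.6 in wild type. The knockout values lay clear above, by 2.21 (SE 0.10; limma, adjusted p = 1.12e-06), a 4.63-fold difference. miR-27b read 30.0, 28.4, 33.1 and 21.1 against 9.35, 10.5, 10.8 and 8.01, a difference of 1.53 (SE 0.10; adjusted p = 8.59e-06). miR-24-1*, the strand that only the chromosome 13 copy of miR-24 yields, read 5.90, 8.07, 5.52 and 8.83 and was at the floor in wild type, at least 2.57-fold higher. It met the detection rule only through knockout groups, so its direction is a description. miR-27b and miR-24-1* lie within chr13:63300760-63301272 together with a copy of miR-24, and miR-23b was not matched to a RefSeq sequence.

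The chromosome 8 paralogs gave no such difference. miR-23a read 292, 262, 328 and 245 in the knockout and 290, 215, 268 and 217 in wild type, a difference of 0.19 (95% interval -0.03 to 0.41) whose sign turned under 3 alternatives. miR-27a, 1 base from miR-27b, read 212, 229, 211 and 211 against 191, 230, 212 and 248, a difference of -0.02 (95% interval -0.26 to 0.21), and scaling over all mouse miRNAs gave -0.36 (limma, adjusted p = 0.0145). miR-24, which both clusters yield, was intermediate at 1.05 (SE 0.09; adjusted p = 4.12e-05). Its values were 306, 271, 302 and 213 against 156, 125, 136 and 108. Probes for miR-27a and miR-27b could share some signal, as the sequences are so close.

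miR-99a, of a family expressed in many mesenchymal cells, differed in the same manner from its relatives with the same seed. It read 18.4, 19.6, 21.9 and 19.6 in the knockout and was at the floor on all 4 wild-type arrays, on 2 of which the software still marked it as detected. It met the detection rule only through knockout groups, so its direction is a description. The fitted difference was 3.37, with the size set by the floor, and the deposited values gave 2.23 (adjusted p = 0.0552). miR-100, 1 base apart, read 19.8, 20.6, 21.0 and 17.0 against 17.7, 16.9, 15.5 and 15.6. Its difference of 0.25 had an adjusted p of 0.0433 in limma, turned to -0.12 under quantile normalization, and lost its call when any 1 pair was left out (adjusted p 0.0541 to 0.22). miR-99b differed by 0.11 (adjusted p = 0.408), with a sign that turned under other scalings. let-7c, which lies within the same 754 bases as miR-99a on chromosome 16, differed by -0.22 (adjusted p = 0.0727). miR-125b-5p, one of the 5 brightest miRNAs, was lower at -0.51 (limma, adjusted p = 0.00412), and without the replicate block its adjusted p was 0.0518.

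Among fibroblast and mesenchymal miRNAs, 7 of 8 tested were higher and 0 lower, with a median of 0.85 against 0.25 over all tested, of which 48.1% were higher. The remaining member of this list on the array, miR-145, was at the floor on every tunicamycin array of both genotypes. With the total gene signal 5 were higher, with scaling over all mouse miRNAs 6, and with the deposited values 0, with a median of 0.23. miR-143, abundant in smooth muscle and other mesenchymal cells, read 102, 82.0, 90.5 and 53.3 in the knockout and 17.6, 14.7, 17.8 and 10.3 in wild type. The sets did not overlap, and the difference was 2.43 (SE 0.09; limma, adjusted p = 4.12e-07), a 5.39-fold difference. The call was lost with the total gene signal (1.85, adjusted p = 0.0977) and the deposited values (1.30, adjusted p = 0.123). miR-152 read 14.6, 14.8, 13.8 and 9.94 against 3.83, 4.77, 4.05 and 2.4, a difference of 1.85 (SE 0.10), against 1.03 (adjusted p = 0.569) with the total gene signal and 0.21 (adjusted p = 0.908) with the deposited values. miR-148a, which shares its seed, was higher by 0.91, and the deposited values turned this to -0.20. miR-22, abundant in fibroblasts, read 1030, 932, 1180 and 910 against 515, 451, 583 and 535, higher by 0.96 (SE 0.09; adjusted p = 7.71e-05), and by 0.40 (adjusted p = 0.164) in the deposited values.

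The miR-199a and miR-214 cluster of mesenchymal cells was higher as well. miR-199a-3p was higher by 0.89, miR-199a-5p by 0.80 and miR-214 by 0.61, each with 4 of 4 pairs higher. Over all tested, 78.6% had one sign in all 4 pairs. In the deposited values the 3 lost their calls, at 0.33, 0.24 and 0.05 (limma, adjusted p 0.284, 0.423 and 0.869). miR-214 also lost its call within run 1 alone (adjusted p = 0.0623). miR-140, a cartilage and mesenchymal miRNA, was higher by 0.52, with -0.04 in the deposited values. miR-21, which is widespread in fibroblasts, read 2730 to 3350 in wild type and 3110 to 3730 in the knockout, and its difference of 0.12 (adjusted p = 0.294) had no settled sign under other scalings. The 5 brightest in wild type were miR-21, miR-125b-5p, miR-720, miR-22 and miR-29a. miR-29a, a repressor of collagen genes, differed by -0.34 (limma, adjusted p = 0.0115). miR-720, since reassigned to a tRNA fragment, differed by -0.17 (adjusted p = 0.238). Within run 1 alone, the value of miR-720 was 0.01.

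The imprinted Dlk1-Dio3 region holds the largest miRNA clusters of the chromosome 12 plus strand and is active in embryonic mesenchyme from the maternal copy. Of 23 tested members, 17 were higher and 2 lower, with a median of 0.70, beside 48.1% higher and 28.6% lower over all tested. The total gene signal called 4 higher, the deposited values 0 in either direction (median 0.07), and normexp correction 23. Under quantile normalization 13 were higher and 3 lower, with a median of 0.33 against -0.03 over all tested. miR-434-3p read 38.6, 33.5, 39.3 and 28.5 in the knockout and 13.2, 9.52, 11.2 and 8.67 in wild type, a difference of 1.72 (SE 0.09; limma, adjusted p = 4.31e-06). Its partner strand miR-434-5p was higher by 1.16. miR-410 read 29.2, 29.6, 27.6 and 24.9 against 10.6, 12.5, 9.04 and 10.2, a difference of 1.40 (SE 0.10). miR-337-3p was higher by 1.34, miR-433 by 1.31 and miR-431 by 1.22. The knockout values of all of these lay above every wild-type value. miR-433 met the detection rule only through the 12 h knockout arrays, and the 2 lower members only through the 12 h wild-type arrays. These directions are a description. In the deposited values miR-434-3p stood at 0.94 (adjusted p = 0.0734) and miR-410 at 1.07 (adjusted p = 0.103).

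Within this region the 8 tested miRNAs of the proximal cluster (chr12:109585818-109595352) were all called higher, from 0.33 to 1.72. Of the 16 in the distal cluster (chr12:109709065-109743784), star strands included, 10 were higher and 2 lower, from -0.69 to 1.41. miR-541, at the low end, read 4.58, 4.11, 3.76 and 2.32 against 8.89, 5.74, 5.72 and 3.77, and its difference of -0.69 turned to 0.22 after normexp correction. Both lower members entered through the 12 h wild-type arrays alone, so their direction is a description. miR-494, on the list for the unfolded protein response, differed by 0.11 (adjusted p = 0.592). Its sign rests on single pairs: without the 12 h pair of replicate 2 the value was -0.01, and without that of replicate 1 it was 0.36 (adjusted p = 0.0228).

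Other single miRNAs were higher. miR-155, induced by inflammatory signals, read 34.7, 36.5, 30.6 and 31.1 against 14.6, 13.0, 9.84 and 11.1, a difference of 1.46 (SE 0.10; limma, adjusted p = 1.39e-05). It stood at 0.89 (adjusted p = 0.17) with the total gene signal and at 0.35 (adjusted p = 0.696) in the deposited values. miR-590-5p read 5.64, 11.2, 5.28 and 4.98, was at the floor in wild type and in untreated cells, and was at least 2.36-fold higher. It met the detection rule only through the 12 h knockout arrays, so this is a description. miR-103 and miR-107, which differ by G22C, were higher by 0.93 and 0.69. The call of miR-107 was lost under quantile normalization (0.49; limma, adjusted p = 0.0715) and within run 1 alone (adjusted p = 0.0523). In the deposited values both lost their calls, at 0.44 (adjusted p = 0.12) for miR-103 and 0.22 (adjusted p = 0.543) for miR-107. miR-301a was higher by 0.63 and miR-130b by 0.61. The deposited values reduced miR-301a to 0.07 (limma, adjusted p = 0.818) and turned miR-130b to -0.14. miR-130b also lost its call under quantile normalization (0.22, adjusted p = 0.0669) and with the total gene signal (0.41, adjusted p = 0.114). miR-34a, a p53 target, was higher by 0.60. Scaling over all mouse miRNAs gave 0.27 (adjusted p = 0.0516) and the deposited values 0.04.

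The seed group of miR-15, miR-16 and miR-322, which restrains cyclins and other drivers of cell division, was lower in all 4 of its tested members, with a median of -0.77. Of all tested miRNAs, 28.6% were lower. All 4 were also lower and called under quantile normalization and under scaling over all mouse miRNAs, 3 of 4 after normexp correction, and 1 of 4 with the total gene signal and with the deposited values. miR-322, known to promote cell-cycle exit in differentiating muscle cells, read 3.66, 5.30, 3.15 and 4.71 in the knockout and 18.4, 23.6, 15.9 and 21.2 in wild type. Every wild-type value was above every knockout value. The difference was -2.25 (SE 0.09; limma, adjusted p = 6.57e-07), and the miRNA was detected on 1 of 4 knockout arrays. It thus met the detection rule only through wild-type groups, so its direction is a description. The normexp correction, which adds an offset to dim signals, left -0.22. The total gene signal gave -2.40 (adjusted p = 0.112) and the deposited values -2.12 (adjusted p = 0.103).

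miR-15b read 59.7, 71.2, 61.6 and 64.6 against 127, 131, 112 and 127, a difference of -0.95 (SE 0.09; limma, adjusted p = 6.75e-05) with sets far apart. miR-16 read 35.9, 38.5, 36.2 and 30.1 against 55.1, 62.4, 46.9 and 48, a difference of -0.59 (adjusted p = 0.00125), which the total gene signal reduced to -0.21 (adjusted p = 0.666) and which lost its call in the deposited values (adjusted p = 0.287). miR-15a was the least changed, at -0.27 (adjusted p = 0.0315), and lost its call without either 24 h pair or without the 12 h pair of replicate 2 (adjusted p 0.073 to 0.117). miR-15b shares the Smc4 locus with a copy of miR-16, and miR-15a shares the Dleu2 locus with the other.

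**Figure D2:**
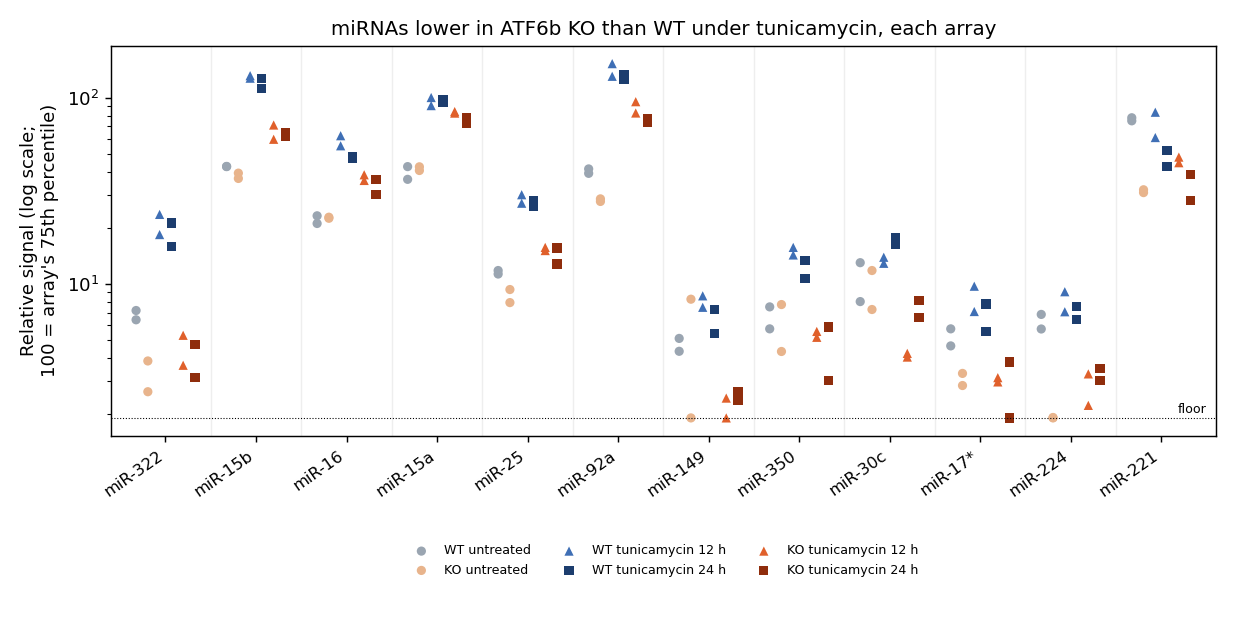
Relative signal on a log scale (100 is the array's 75th percentile) for 12 miRNAs lower in the knockout under tunicamycin, 1 point per array, with colours as for the higher miRNAs. miR-322 and miR-15b show wild-type tunicamycin arrays above all others, and miR-15a shows the smallest gap between genotypes.

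The clusters miR-17-92, miR-106a-363 and miR-106b-25, which promote proliferation, had 0 of 9 tested members higher and 5 lower, with a median of -0.37 that turned to 0.08 after normexp correction. Over all tested, 48.1% were higher and 28.6% lower. miR-92a read 82.6, 95.0, 77.2 and 73.4 against 152, 130, 133 and 125, a difference of -0.72 (SE 0.10; limma, adjusted p = 0.000675). miR-19b was lower by 0.47 (adjusted p = 0.0046). miR-18a, also at -0.47, turned to 0.08 after normexp correction. miR-17*, the passenger strand of miR-17, met the detection rule only through the 12 h wild-type arrays. It differed by -1.37, and this turned to 0.13 after that correction.

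The 3 miRNAs of the Mcm7 locus (chr5:138165332-138165807) were not alike. miR-25 read 15.1, 15.7, 15.6 and 12.8 against 30.1, 27.1, 28.1 and 25.9, a difference of -0.91 (SE 0.09; adjusted p = 8.55e-05) in the summed probes. The software's total gene signal gave 2.17 for it and the deposited values 1.62, so its direction depends on which signal is used. The cause was not tested. Its neighbours miR-93 and miR-106b differed by 0.08 (adjusted p = 0.496) and 0.14 (adjusted p = 0.195), with signs that turned under other scalings. miR-20a, of the miR-17 seed family like them, differed by -0.20 (adjusted p = 0.0726).

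Among the remaining lower miRNAs, many were dim. miR-149 read 2.44, 1.91, 2.63 and 2.37 against 8.63, 7.49, 7.30 and 5.43, a difference of -1.62 (SE 0.14). It met the detection rule only through wild-type groups, so its direction is a description. miR-350 read 5.56, 5.17, 5.87 and 3.03 against 15.7, 14.3, 13.4 and 10.7, a difference of -1.49 (SE 0.12). Its direction is likewise a description, as it too met the rule only through wild-type groups. miR-30c read 4.24, 4.05, 8.16 and 6.63 against 13.9, 12.9, 17.7 and 16.2, a difference of -1.45 (SE 0.13). Knockout and wild-type sets did not overlap for these 3. After normexp correction miR-149 was at 0.12, miR-350 at -0.01 and miR-30c at -0.07, and all 3 calls were lost. Size, call and, for miR-149, sign thus depend on how background is treated. The calls were also lost with the total gene signal (limma, adjusted p 0.114, 0.681 and 0.658 in that order). The same held for the deposited values (0.103, 0.699 and 0.535).

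5 miRNAs were detected on no knockout tunicamycin array and on 3 of the wild-type ones: miR-224, miR-218, miR-467b*, miR-467e* and miR-467g. All 5 met the detection rule only through the 12 h wild-type arrays, so their direction is a description. miR-224 was at least 1.79-fold lower in the knockout, and miR-218 at least 1.22-fold lower. After normexp correction they stood at 0.24 and 0.20. miR-690, which entered in the same way, differed by -0.98, and by 0.16 after that correction. miR-221, which supports cell cycle entry, read 47.9, 44.7, 38.8 and 28.1 against 83.4, 61.0, 52.2 and 42.5, lower by 0.57 (SE 0.10; limma, adjusted p = 0.00181).

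The related miR-466, miR-467 and miR-669 families were listed for the repeat-rich miRNA cluster in an intron of Sfmbt2. Of the 10 tested, RefSeq places miR-467f on chromosome 11 (chr11:69635419-69635439, minus strand, within the span of Fxr2) and miR-467g on chromosome 5 (chr5:34732872-34732892, minus strand, within the span of Grk4), and the other 8 were not matched. In these families 10 of 10 were lower, with a median of -0.65, but 0 with the total gene signal and with the deposited values, 1 lower without the replicate block and 0 lower with 3 higher after normexp correction. On the main scale, 28.6% of all tested were lower. Some members differed more between runs than between genotypes. miR-466f-3p read 13.0 and 7.09 on the run 1 knockout arrays and 39.1 and 35.8 on the run 2 ones, against 20.5, 8.59, 106 and 79.8 in wild type in the same order. Its difference was -0.88 (adjusted p = 0.00412, and 0.471 without the block). miR-467g differed by -1.20, with an adjusted p of 0.427 without the block and of 0.0549 without the 12 h pair of replicate 1. miR-466a-3p, like miR-467g, entered through the 12 h wild-type arrays alone and differed by -1.04, and by 0.23 after normexp correction. Members of these families are near copies of one another, so their probes cannot be taken as separate measurements.

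Lists named after the unfolded protein response did not move as one. Of 6 tested miRNAs on the list of those that increase in that response, 3 were higher (miR-24, miR-199a-5p and miR-214) and 0 lower, with a median of 0.40. Of 7 tested on the list of those that decrease, 2 were higher (miR-96 and miR-34a) and 3 lower (miR-25, miR-221 and miR-125b-5p), with a median of 0.08. Over all 154 the median was 0.25, with 48.1% higher and 28.6% lower. In the deposited values, 0 of the 6 were higher, and 0 of the 7 higher and 3 lower. In let-7, 4 of 9 were higher and 1 lower, and under quantile normalization 0 were higher and 2 lower. miR-98 was the highest of that family at 0.76, and turned to -0.20 with the total gene signal. Of 3 tested miR-29 members 1 was higher and 2 lower, of 4 miR-30 members 1 was higher and 1 lower, and of 2 miR-10 and miR-196 members 1 was lower. Of 6 muscle markers 1 was tested, miR-206, at -0.39 (adjusted p = 0.0138, and 0.339 without the replicate block).

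**Figure D3:**
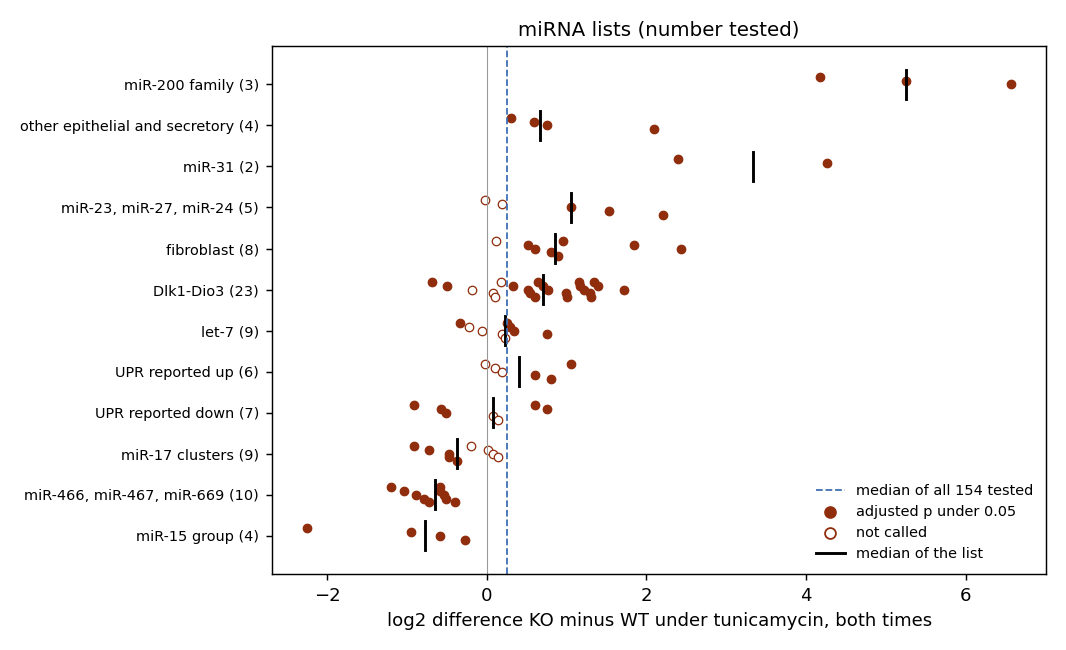
Log2 difference knockout minus wild type over both times for the tested members of 12 lists, 1 point per miRNA, filled where called, with the list median as a black bar and the median of all 154 miRNAs (0.25) as a dashed line. The miR-200 family and miR-31 lie farthest to the right, and the miR-15 group and the miR-466, miR-467 and miR-669 families lie to the left of 0.

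At 12 h alone, 83 miRNAs were called (53.9%), 56 higher (36.4%) and 27 lower (17.5%), and at 24 h alone 75 (48.7%), 57 higher (37%) and 18 lower (11.7%). Of these, 67 were called at both times, always with the same sign, 16 at 12 h alone and 8 at 24 h alone. Leaving out 1 array lowered the 24 h count to 45 (knockout replicate 1) or 47 (wild-type replicate 2) and the 12 h count to 55 (knockout replicate 2). The signs at 12 h and 24 h were the same in 143 of 154 miRNAs. The test of the difference between times itself called 0 miRNAs (0%), with a smallest adjusted p of 0.974 in limma and 5 miRNAs at an unadjusted p under 0.05. The software's total gene signal called 1, and leaving out the 24 h wild-type array of replicate 2 called 2. miR-200c was equal at both times, 6.57 and 6.57, and so nearly was miR-322, -2.24 and -2.25.

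The 5 smallest unadjusted p-values for a change with time belonged to miR-149, miR-689, miR-1224, miR-467b* and miR-30c. For all 5 the genotype gap was narrower at 24 h. miR-1224 went from 73.0 and 57.5 at 12 h to 205 and 245 at 24 h in wild type, and from 145 and 190 to 301 and 382 in the knockout. Its genotype difference was 1.36 at 12 h and 0.60 at 24 h. miR-689 went from 5.91 and 6.89 to 18.4 and 23.2 in wild type and from 20.1 and 20.7 to 41.4 and 49.1 in the knockout, with differences of 1.67 and 1.13. miR-30c was at -1.69 and -1.20 and miR-149 at -1.89 and -1.34. miR-467b* was at -1.73 and -0.56. None of these changes with time passed the test after adjustment (each adjusted p = 0.974 in limma).

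**Figure D4:**
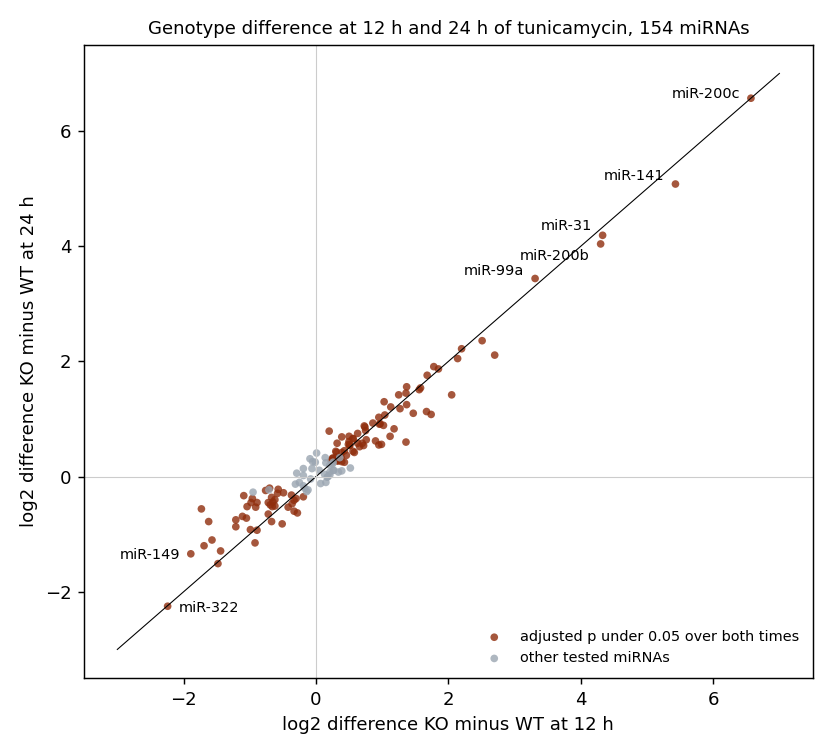
Log2 difference knockout minus wild type at 12 h (horizontal) and 24 h (vertical) of tunicamycin for 154 miRNAs, dark red where called over both times, with the line of equality. Points follow the line from miR-322 at -2.24 to miR-200c at 6.57, and the 24 h values of several lower miRNAs, such as miR-149, lie nearer to 0 than the 12 h values.

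In untreated cells the median difference over the 154 miRNAs was -0.005. Whether the difference under tunicamycin departed from the untreated one was tested over all 12 arrays, with 74 miRNAs called (48.1%), 62 more positive under tunicamycin (40.3%) and 12 more negative (7.79%). Quantile normalization called 33 (24 and 9), and scaling over all mouse miRNAs 35 (20 and 15). Of the 118 miRNAs called under tunicamycin, 65 were among the 74. Without either untreated array of replicate 1 the count was 39 (34 and 5), and without either of replicate 2 it was 54, an alternative chosen after seeing the data. With the pair as a block, leaving out an array sets its untreated partner aside too. The miR-200 family had 3 of 3 more positive. The changes were 6.57 for miR-200c, 5.25 for miR-141 and 4.01 for miR-31. The detection rule used tunicamycin arrays only, and the miR-200 family members and miR-31 met it only through knockout groups. A more positive change was thus favoured in advance for them, and its direction is a description. miR-99a was already higher in the untreated knockout, at 16.2 and 15.4 against 6.01 and 5.18, and its difference grew by 1.87 (limma, adjusted p = 0.000107). As it also entered only through knockout groups, the direction of this change is a description. miR-148a read 7.40 and 7.33 in the untreated knockout against 3.73 and 3.06, and its change of -0.21 (adjusted p = 0.374) did not pass.

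Setting each genotype beside its own untreated cells shows which one departed, although slide and treatment cannot be told apart in such a contrast. Of the 74 miRNAs higher in the knockout, the wild type stood farther from its untreated mean in 49 and the knockout in 24. In 34 of the 74, wild type under tunicamycin was more than 0.5 below its untreated mean while the knockout was within 0.5 of its own. miR-31 was of this kind, at -4.10 in wild type and -0.09 in the knockout, as were miR-143 (-2.01 and -0.05), miR-23b (-1.76 and 0.16), miR-410 (-1.78 and -0.35) and miR-434-3p (-1.52 and -0.08). The miR-200 family was of the other kind: miR-200c was at the floor in all untreated cells and at least 73.8-fold above it in the knockout under tunicamycin. Of the 44 lower miRNAs, wild type stood farther from untreated in 30, among them miR-322 (1.53 in wild type and 0.37 in the knockout) and miR-15b (1.54 and 0.75).

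For some miRNAs the genotype gap was wider in untreated cells. miR-221 was at 77.9 and 75 in untreated wild type and 30.9 and 32.0 in the untreated knockout, so the gap under tunicamycin was smaller by 0.71 (limma, adjusted p = 0.00985, and 0.0942 without untreated replicate 1). Of the miR-17 clusters, 6 of 9 were more positive and 1 more negative under tunicamycin than untreated, beside 40.3% and 7.79% over all tested. miR-20a, for one, read 26.6 and 23.1 in untreated wild type and 12.1 and 12.2 in the untreated knockout, and 62.0 to 72.2 against 51.9 to 68.9 under tunicamycin, a change of 0.83 (adjusted p = 0.00372, and 0.0504 without untreated replicate 1). miR-25 was more negative, by 0.49, and lost its call without either replicate (adjusted p 0.0954 to 0.24). Of the Dlk1-Dio3 members 13 of 23 were more positive and 0 more negative, and of the miR-466, miR-467 and miR-669 families 0 of 10 passed in either direction.

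**Figure D5:**
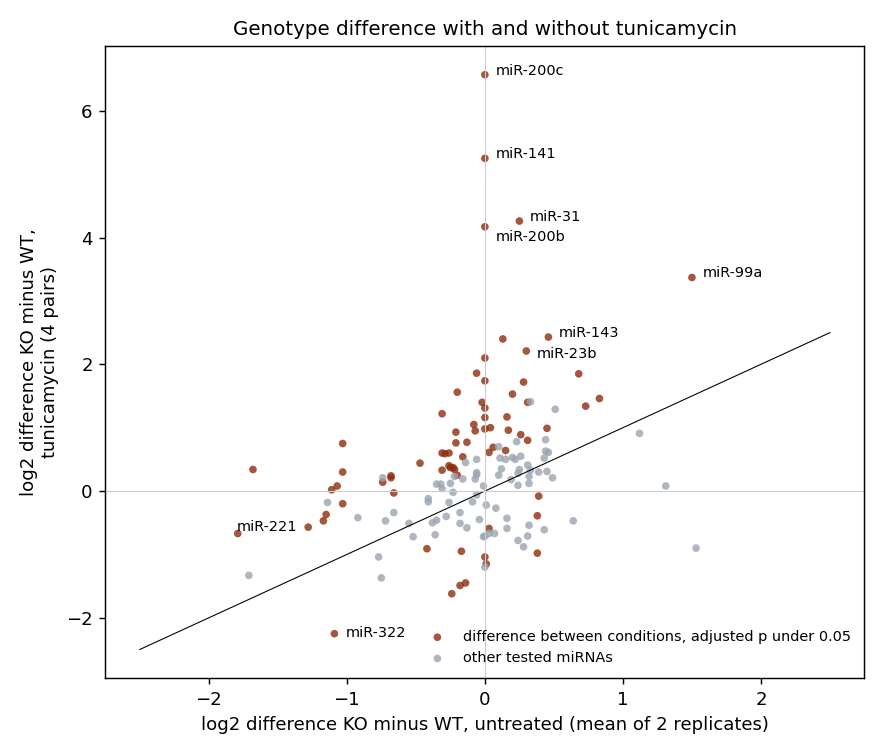
Log2 difference knockout minus wild type in untreated cells (horizontal, mean of 2 replicates) and under tunicamycin (vertical, 4 pairs) for 154 miRNAs, dark red where the difference between the 2 conditions was called, with the line of equality. miR-200c, miR-141 and miR-200b stand at 0 when untreated and between 4.17 and 6.57 under tunicamycin, and miR-221 lies above the line.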

How the data were processed

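Total RNA was hybridised with Cy3 to 1-colour Agilent miRNA arrays (13000 gene spots, 1857 probes, 650 miRNAs). Per the file headers, the authors' files hold Agilent Feature Extraction 10.7.1.1 output, in which the processed signal is a background-subtracted intensity. The authors also deposited log2 values, which match the total gene signal from the software, taken to log2, within 1.18e-06 and are empty where a miRNA was not detected.

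From the intensity, spots were averaged per probe without outlier flags (2.74% of spots), probes were summed per miRNA, sums were divided by the array's 75th percentile over 93 miRNAs detected on all 12 arrays, values were raised to the floor (log2 -5.71), and log2 was taken. Differences were fitted with limma 3.58.1 in R 4.3.3, with Benjamini-Hochberg adjustment over 154 miRNAs and a threshold of 0.05. The fit over both times held pair and genotype on 8 arrays. The fits per time held group and run, and the comparison with untreated cells group and run within slide on 12 arrays. Residual degrees of freedom were 3 or 4. An exact test over 4 pairs cannot go below a two-sided p of 0.125, so none was used. Same-numbered arrays share a scan run and deviated together (correlations 0.78 to 0.93), which is why the pair is a block.

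Alternatives were quantile normalization, scaling over all mouse miRNAs, normexp background correction (offset 50), the total gene signal, the deposited values, other floors and filters, other treatments of the block, and leaving out each array. The total gene signal was scaled like the sums. The deposited values were not scaled between arrays, and their empty cells took the array's lowest value. For normexp the median signal was used, fitted on gene spots without outlier flags, a change made after seeing the data, as were the fits within each run and those leaving out an untreated array. The number of arrays limits the precision. The scripts were tested on simulated data.

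The miRNAs named come from a rule: up to 10 largest higher and 10 largest lower among those called with 1 sign in all 4 pairs, up to 5 smallest p-values of each interaction test, the measured members of both unfolded protein response lists, up to 4 members of each other list by smallest p, the other strand of a named hairpin, and the 5 brightest in wild type. Neighbours or relatives outside it (let-7c, miR-140, miR-434-5p, miR-433, miR-541, miR-590-5p, miR-103, miR-107, miR-20a and miR-467e*) were added after their values were seen. The members and lists were chosen with earlier results of these data known.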

Additional observations from a re-analysis of the deposited data

Results flagged for a closer look

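The genotype difference under tunicamycin departed from the untreated one by limma's interaction test for 74 miRNAs, and the values for the named ones follow as log2 changes of the difference. Slide and treatment cannot be told apart in any of them. As the detection rule used tunicamycin arrays only, some miRNAs met it only through the genotype where they are high. For those, the direction of the change is a description. On the epithelial lists, miR-200c stood at 6.57, miR-141 at 5.25, miR-200b at 4.17, miR-375 at 2.10, miR-96 at 1.79 and miR-183 at 0.88. For miR-31 the value was 4.01 and for miR-31* 2.28. In the miR-23 and miR-24 clusters, miR-23b stood at 1.91, miR-24-1* at 1.92, miR-27b at 1.33 and miR-24 at 1.14. miR-99a stood at 1.87 and miR-100 at 0.46.

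Among mesenchymal miRNAs the values were 1.97 for miR-143, 1.17 for miR-152, 0.78 for miR-22, 0.63 for miR-199a-3p and 0.50 for miR-199a-5p. In the Dlk1-Dio3 region they were 1.54 for miR-431, 1.44 for miR-434-3p, 1.43 for miR-410, 1.30 for miR-433, 1.17 for miR-434-5p and 0.61 for miR-337-3p. Others that were more positive were miR-590-5p at 1.74, miR-103 at 1.15, miR-689 at 1.09, miR-1224 at 0.98, miR-98 at 0.97, miR-34a at 0.86, miR-221 at 0.71, miR-107 at 0.64, miR-155 at 0.63 and miR-130b at 0.58. In the miR-17 clusters, miR-93 stood at 1.15, miR-106b at 0.88, miR-20a at 0.83, miR-18a at 0.70 and miR-25 at -0.49.

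The values below 0 were -1.16 for miR-322, -0.79 for miR-15b and -0.62 for miR-16 in the miR-15 group. They were -1.37 for miR-149, -1.36 for miR-690, -1.31 for miR-350, -1.31 for miR-30c, -1.16 for miR-467b*, -1.04 for miR-218 and -0.77 for miR-206. For miR-149 the 2 untreated pairs differed, at 0.70 and -1.19. Its untreated knockout arrays read 8.28 and 1.91 and its wild-type ones 5.10 and 4.35, and its change was -0.43 (adjusted p = 0.211) without untreated replicate 1 and -2.31 without replicate 2.

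Of 50 named miRNAs called in this test, 23 lost their call without untreated replicate 1 and 12 without replicate 2, and 0 changed sign. Those that lost it in both cases were miR-100, miR-152, miR-199a-5p, miR-434-5p, miR-337-3p, miR-155, miR-16, miR-25, miR-467b*, miR-206 and miR-130b. miR-183 lost it without replicate 2 alone. Without replicate 1 alone, miR-22, miR-199a-3p, miR-107, miR-18a, miR-20a, miR-93, miR-106b, miR-149, miR-350, miR-221, miR-98 and miR-1224 lost it. Each group holds 2 arrays, too few to look for an array far from the others within a group.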

How the results depend on the processing

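With 4 pairs on 1 slide, the calls depend on scaling, on the treatment of background and on the block. Over both times, 88 of 95 calls under quantile normalization, 91 of 105 under scaling over all mouse miRNAs and 85 of 120 under normexp were shared with the same direction, and 49 miRNAs were called in one direction in 7 settings (41 higher, 8 lower). Those were the main setting, the alternatives just named, a doubled floor, no replicate block and the pair as a random block. The total gene signal and the deposited values were not among them. Of 73 named miRNAs, 9 kept their sign and their call, or lack of one, in every setting without an array left out. The count over both times was 59 within run 1 alone, 28 with the total gene signal and 14 with the deposited values. At 12 h it was 47 with normexp, 10 with the total gene signal, 5 with the deposited values and 47 over miRNAs detected on all 8 arrays, and at 24 h 37, 8, 4 and 45. The test between times called 1 with the total gene signal. The comparison with untreated cells called 33 under quantile normalization, 35 under scaling over all mouse miRNAs, 19 with the total gene signal, 3 with the deposited values and 45 over miRNAs detected on all 8 arrays. Without the replicate block the counts were 81, 57, 52, 0 and 50, and with the pair as a random block 106, 79, 85, 0 and 85, in the order both times, 12 h, 24 h, between times and against untreated. With each array left out in turn, they ran from 93 to 112, 55 to 85, 45 to 71, 0 to 2 and 39 to 85 (untreated arrays included). The cause was not tested, except that fewer miRNAs were tested over those detected on all 8 arrays.

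Among 73 named miRNAs, 28 changed sign under some setting. Under quantile normalization these were miR-23a (-0.01), miR-100 (-0.12), miR-99b (-0.36), miR-21 (0), miR-494 (-0.17), miR-93 (-0.32) and miR-106b (-0.27), and under scaling over all mouse miRNAs the values were -0.14, -0.08, -0.22, -0.21, -0.22, -0.25 and -0.19 in that order. After normexp they were miR-541 (0.22), miR-17* (0.13), miR-18a (0.08), miR-149 (0.12), miR-224 (0.24), miR-218 (0.20), miR-690 (0.16), miR-466a-3p (0.23), miR-467b* (0.13), miR-467g (0.08), miR-467e* (0.24) and miR-206 (0.26). With the total gene signal they were miR-183 (-0.02), miR-99b (-0.40), miR-25 (2.17), miR-18a (0.19), miR-93 (-0.66), miR-466f-3p (0.47) and miR-98 (-0.20). With the deposited values, which were not scaled between arrays, they were miR-183 (-0.11), miR-23a (-0.37), miR-100 (-0.35), miR-99b (-0.95), miR-148a (-0.20), miR-140 (-0.04), miR-21 (-0.44), miR-494 (-0.35), miR-25 (1.62), miR-93 (-1.21), miR-106b (-0.44), miR-98 (-0.75) and miR-130b (-0.14). Within run 1 alone they were miR-27a (0.07), miR-494 (-0.20), miR-93 (-0.05) and miR-720 (0.01). With 1 pair left out, miR-27a ran from -0.08 to 0.05 (without the 24 h pair of replicate 2) and miR-494 from -0.01 (without the 12 h pair of replicate 2) to 0.36 (without that of replicate 1). The cause was not tested.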

Other observations

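The arrays also carry 39 viral miRNAs, which enter none of the comparisons. One, mghv-miR-M1-2 of a mouse gammaherpesvirus, was detected on 10 of 12 arrays, 6 of them under tunicamycin. Its relative signal under tunicamycin was 4.70, 13.4, 4.97 and 19.0 in wild type and 7.04, 13.8, 6.99 and 14.8 in the knockout. In untreated cells it was 23.3 and 7 in wild type and 27.3 and 6.16 in the knockout.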
